A study of Mus musculus with 2 samples.

Results

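The genes described are 38 genes of endothelial identity and of signalling by vascular endothelial growth factors (Vegf) and angiopoietins, followed in whole lungs of mouse embryos at embryonic day 18. They were taken as every probe set, other than controls, whose single gene symbol in the platform annotation was among the 38. All 38 genes were found, on 71 of 45037 probe sets, out of 18193 genes with a probe set. RNA was measured on Affymetrix arrays, in which labelled RNA binds to short probes, grouped in probe sets that each read a transcript. The wildtype group held 1 array made from normal lungs, and the other group held 1 array made from lungs homozygous for Nmyc9a, a hypomorphic allele of Mycn. Both arrays were made from pooled lungs, the labels name no treatment, and neither strain, sex nor the number of lungs per pool is given. The design asks which transcripts differ when Mycn, the gene of the N-Myc transcription factor, has reduced function.

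With 1 array per group there was no replicate check, no p-value could be given, and a pool shows nothing of the spread between embryos. The only error that could be measured was how far a gene's own probe sets differed. The pooled SD of their ratios was 0.40 on the log2 scale over 5671 genes with several measured probe sets, and 0.27 over the 18 such genes among those described here. Ratios below are log2 ratios of the array labelled Nmyc9a over the wildtype array, and each pair of signals has the wildtype value first. A gene was called measured when the mean signal of its brightest probe set was at or above 49.3, a floor set at the 40th percentile of all signals. Mycn itself read 66.3 and 84.8 by its brightest probe set, a ratio of 0.36, and 51.1 and 85.4 by the other measured probe set. Mycn was therefore not lower on the array labelled Nmyc9a, both wildtype values lay near the floor, and the sources do not place its probes against the changed stretch of Mycn, so the label could not be checked.

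Endothelial cells line all blood and lymph vessels, and in the lung they form the capillary bed on which gas exchange depends. Vegfa, made largely by epithelium, signals through the receptor tyrosine kinase Kdr, while Flt1 binds the same ligand and mainly acts as a decoy. Vegfc acts through Flt4 to drive growth of lymphatic vessels, and the angiopoietins Angpt1 and Angpt2 act on the receptor Tek. Endothelial identity is held by Ets family factors such as Erg and Fli1 and by the SoxF factors Sox7, Sox17 and Sox18.

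The endothelial genes as a group were detected on both arrays and stood close to equal on them. Of the 38 genes, 36 were measured, and the defining markers Pecam1, Cdh5, Kdr and Tie1 were all well above the floor. Gja5, the arterial gap junction gene connexin 40, read 18.3 and 14.3, and Prox1, the factor that specifies lymphatic endothelium, read 36.9 and 33.9 at its brightest, so both stood below the floor on both arrays and have no ratio. None of the 36 measured genes reached 1.5-fold in either direction, where 6.33% of the 12600 measured genes were higher and 9.7% lower by that much, and 1.29% and 1.38% by 2-fold. The genes compared were not matched for signal. With a floor at the 60th percentile none of 35 endothelial genes reached 1.5-fold, against 3.79% higher and 9.38% lower of all genes measured then. At a smaller size and the floor of 49.3, a log2 ratio of 0.32 either way, 6 of the 36 were higher and 3 lower, against 16% and 27.2% of all measured genes. Flt1, Vwf and Angpt1 stood higher by more than the SD of 0.40 and Vegfc lower by more than it, against 12.2% and 20.7% of all measured genes. In bulk lung RNA, fewer cells of a type and less RNA per cell cannot be told apart.

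The endothelial genes nevertheless leaned to the higher side of the other genes. Their median ratio was 0.081, with the middle of the distribution between -0.090 and 0.19, while the median of all measured genes was -0.089, with its middle between -0.35 and 0.19. Of the 36 genes, 23 (63.9%) stood above 0, compared with 41.3% of all measured genes. Probe sets with a high signal read lower as a whole on the array labelled Nmyc9a, and 25 of the 36 genes had such signals. In the brightest 4200 of all measured genes the median was -0.19 and 28.7% stood above 0, whereas these 25 endothelial genes in that range had a median of 0.092 with 16 above 0. In the middle 4200 the median was -0.090 overall and 0.048 for the 10 endothelial genes there. A smooth correction for signal (loess) raised the endothelial median to 0.25, and under all 9 alternative settings it stayed above that of all measured genes. All 9 rework the same 2 arrays, and some of them could hardly move the endothelial median.

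**Figure D1:**
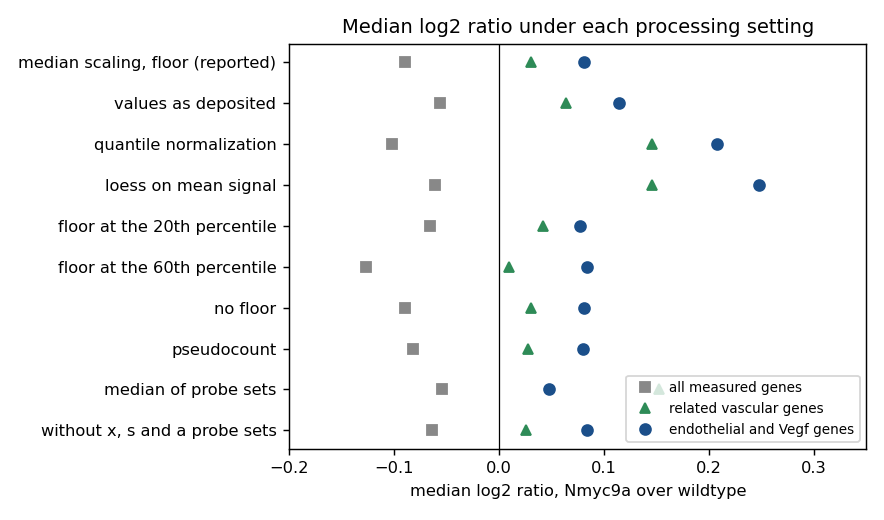
Median log2 ratio (x) of the endothelial and Vegf genes, the related vascular genes and all measured genes under each processing setting (y). The endothelial median runs from 0.048 to 0.25 and that of all measured genes from -0.13 to -0.055.

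**Figure D2:**
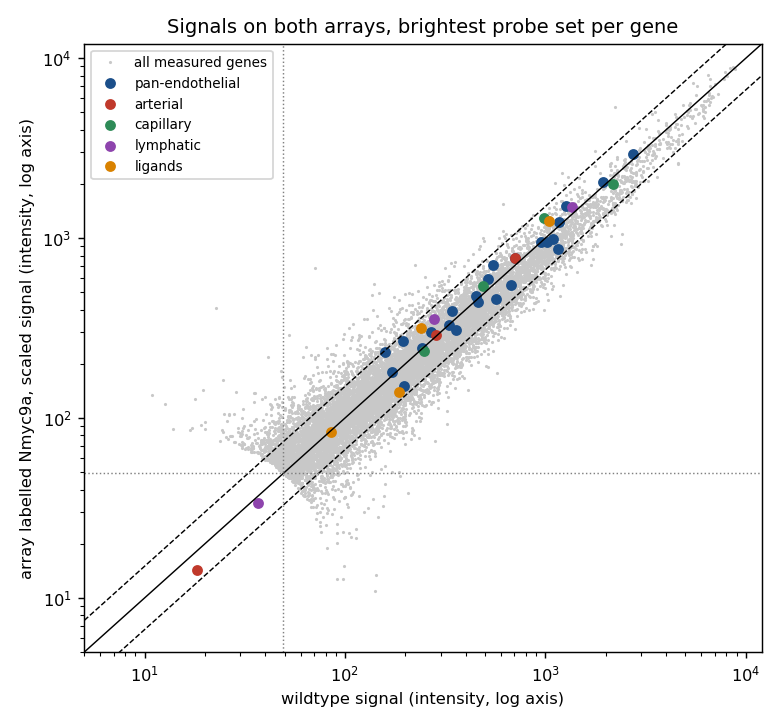
Signals of the 38 genes (coloured by subclass) on the wildtype array (x, log axis) and on the array labelled Nmyc9a after scaling (y, log axis), brightest probe set per gene, with all measured genes in grey. The solid line is equality, the dashed lines are 1.5-fold and the dotted lines the floor of 49.3. All 36 measured genes lie between the dashed lines, and Gja5 and Prox1 lie below the floor on both arrays.

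Among the receptors, Flt1 had the ratio furthest above 0. The 10 receptor genes were all measured, with 7 above 0 and a median of 0.14, against 41.3% and -0.089 for all measured genes. Flt1 read 159 and 233, a ratio of 0.55 (1.46-fold), and 7.28% of all measured genes stood at least as high. Its other probe sets read 117 and 183 (0.64), 146 and 139 (-0.070), and 75.3 and 102 (0.44). Flt1 was therefore higher by 3 of 4 probe sets and slightly lower by the other. Flt4, the receptor for Vegfc, read 278 and 355 by its brighter probe set and 98.2 and 119 by the other, ratios of 0.35 and 0.28. Kdr, the main signalling receptor for Vegfa, read 1171 and 1236, a ratio of 0.077. The Vegf receptors thus ranged from near equal for Kdr to 1.46-fold for Flt1, and only Flt1 passed the SD of 0.40.

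The angiopoietin and Tgf-beta family receptors gave small ratios of both signs. Tek, the angiopoietin receptor, read 357 and 309 (-0.21), and Tie1, an orphan receptor related to Tek, read 344 and 394 (0.20). Eng, or endoglin, a co-receptor for Bmp ligands, read 520 and 592 (0.19) by its brighter probe set and 181 and 246 (0.45) by the other. Acvrl1, the type I receptor that works with endoglin, gave -0.060 by its brighter probe set (459 and 440) and 0.43 by the other (268 and 362). Both of its probe sets were well above the floor, so the sign for Acvrl1 was not settled by these arrays. Ramp2, which forms the adrenomedullin receptor together with Calcrl, read 1942 and 2058 (0.084).

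The ligands stood on both sides of 0. Vegfc, the lymphatic growth factor, was lower by all 3 of its probe sets, at 185 and 139 (-0.41), 120.5 and 75.1 (-0.68), and 125 and 56.6 (-1.14). By its median probe set it was past 1.5-fold lower, and it was the only one of the 36 genes to be so. That probe set can bind more than 1 transcript, by the ending of its name. The probe set at -1.14 read 56.6 on the array labelled Nmyc9a, near the floor of 49.3. The brightest Vegfc probe set, the one used for the counts, gave 1.33-fold, and 20.3% of all measured genes stood at least as low. Angpt1, the ligand that activates Tek and is made by mural and mesenchymal cells, read 239 and 318 (0.41) and 55.5 and 72.0 (0.38), higher by both probe sets. Vegfa read 1046 and 1249 (0.26) and 458 and 474 (0.051), and Angpt2, an angiopoietin of activated endothelium, read 85.0 and 84.1 (-0.015). The 4 ligands had a median of 0.12, a value that stands between genes of opposite sign and describes none of them.

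Both measured lymphatic genes stood above 0 by their brightest probe sets, but the probe sets of Lyve1 differed in sign. Flt4, the receptor of Vegfc, was higher by both probe sets while Vegfc, grouped with the ligands, was lower by all of its own. Lyve1, a hyaluronan receptor of lymphatic endothelium and of some macrophages, read 1362 and 1493 (0.13) by its brighter probe set but 1026 and 820 (-0.32) by the other. With Prox1 below the floor on all 3 of its probe sets, the lymphatic subclass rests on Flt4 and Lyve1 alone, with a median of 0.24. Lyve1 is also known from sinusoidal endothelium of the liver, and liver transcripts were higher on the array labelled Nmyc9a, with a summed signal of 390 and 1275 over the 8 liver genes on the array. Their part in the Lyve1 signal was not tested.

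**Figure D3:**
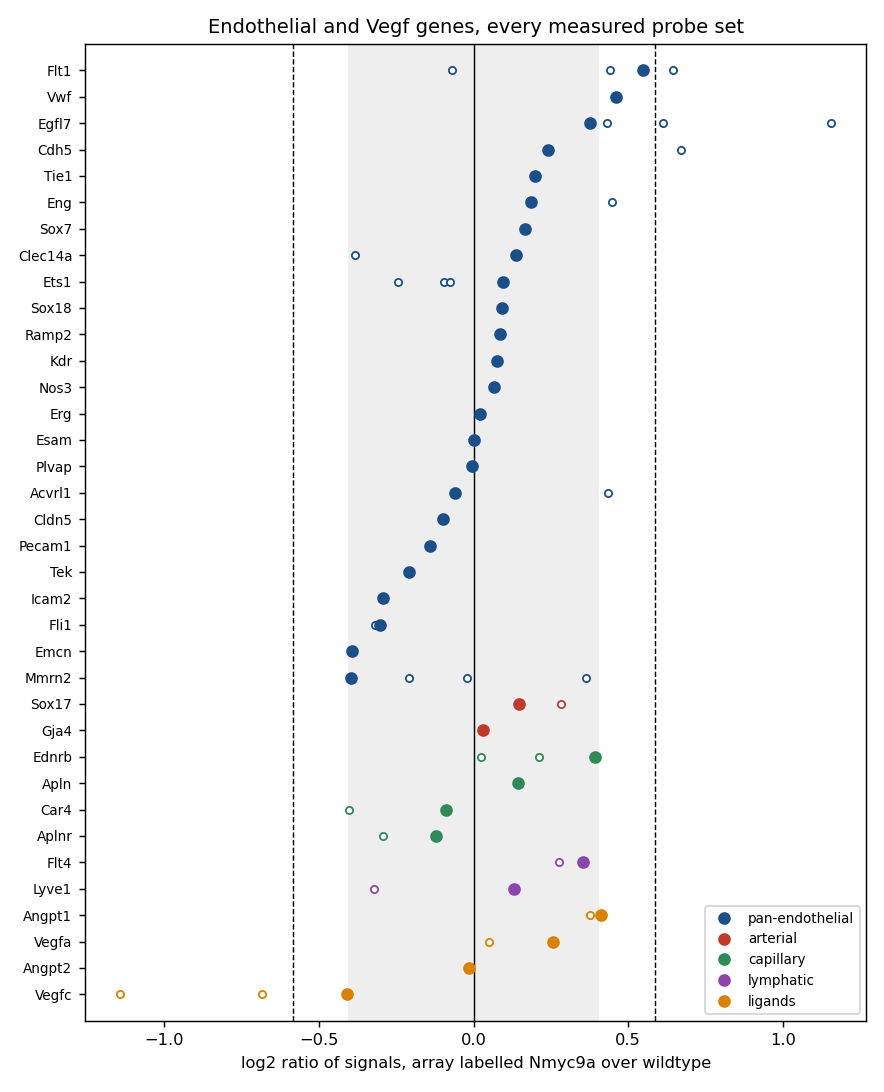
Log2 ratio of signals, array labelled Nmyc9a over wildtype, for the 36 measured genes, sorted within subclass; filled points are the brightest probe set and open points the other measured probe sets of the gene. The grey band is the pooled SD of 0.40 between probe sets and the dashed lines are 1.5-fold. Filled points run from -0.41 (Vegfc) to 0.55 (Flt1), and open points of Egfl7, Flt1, Cdh5 and Vegfc lie outside the dashed lines.

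Genes grouped as secreted factors and enzymes had a somewhat higher median ratio than those grouped as surface and junction genes. Egfl7, a secreted factor of endothelial cells that lies around growing vessels, was higher by all 4 of its probe sets. They read 549 and 713 (0.38), 492 and 752 (0.61), 393 and 529 (0.43), and 169 and 375 (1.16), or from 1.30-fold to 2.23-fold. All 4 are of kinds that can bind more than 1 transcript, by the ending of their names, so no probe set for a single transcript was at hand as a check. Vwf, von Willebrand factor, stored by endothelium of larger vessels and by platelets, read 195 and 268 (0.46, 1.38-fold) on its single probe set. Nos3, endothelial nitric oxide synthase, read 172 and 180 (0.066). The 9 secreted factors and enzymes had a median of 0.14 with 6 above 0. Among them were the ligands, some of them made by other cells, and Car4, a membrane enzyme. The 11 measured surface and junction genes had a median of -0.0056 with 5 above 0 (45.5%). Of all measured genes 41.3% stood above 0, with a median of -0.089, so the surface and junction share lay near that of all genes. Mmrn2, a matrix protein at -0.40, was counted among the surface and junction genes, so the grouping is not strictly by secretion. Their median turned positive under some alternative settings, and the difference between these groups was not tested.

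Junction and surface genes went to both sides of 0. Cdh5, the VE-cadherin of endothelial adherens junctions, was higher by both probe sets, at 1275 and 1506 (0.24) and at 284 and 452 (0.67, 1.59-fold). Pecam1, the adhesion molecule CD31, read 1088 and 986 (-0.14), Cldn5, the endothelial claudin of tight junctions, read 1023 and 955 (-0.098), and Esam, a further junction protein, read 952 and 953 (0.0015). By their brightest probe sets these junction genes all lay inside the SD of 0.40, and only the dimmer probe set of Cdh5 passed it. Emcn, the sialomucin endomucin of capillaries and veins, read 1150 and 875 (-0.39), and Icam2, an adhesion molecule also found on platelets and leukocytes, read 675 and 551 (-0.29). Plvap, which forms the diaphragms of fenestrae and caveolae, read 332 and 331 (-0.0056). Emcn and Icam2 were the lowest of the surface genes with 1 probe set, and each stayed inside the SD of 0.40.

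The extracellular partners Clec14a and Mmrn2 were not settled by their probe sets. Clec14a, a C-type lectin that binds Mmrn2, read 707 and 777 (0.14) by its brighter probe set and 189 and 145 (-0.38) by the other. Mmrn2, an endothelial matrix protein, ranged from -0.40 (198 and 150) to 0.36 (123 and 159) over 4 probe sets, of which 1 stood above 0. Both genes had probe sets on either side of 0 that differed by more than the SD between probe sets.

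Transcription factors of endothelial identity stood near 0, with Fli1 furthest from it. Of the 7 factors 6 were measured, with a median of 0.094 and 5 above 0, against -0.089 and 41.3% for all measured genes. The SoxF factors were all slightly higher, with Sox7 at 267 and 300 (0.17), Sox18 at 450 and 479 (0.092), and Sox17 at 703 and 779 (0.15) and 366 and 446 (0.28). Erg, an Ets factor that maintains endothelial genes, read 241 and 245 (0.021). Fli1, the Ets factor most like Erg, was lower by both probe sets, at 568 and 461 (-0.30) and 414 and 332 (-0.32). The probe sets differed from each other far less than the pooled SD. Both ratios lay inside the SD of 0.40, and 28.8% of all measured genes stood at least as low as the brighter probe set. Ets1 read 2737 and 2927 (0.097) by its brightest probe set, while its 3 other probe sets gave ratios from -0.25 to -0.076. Fli1 and Ets1 are also expressed in blood cells, and Fli1 in megakaryocytes.

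Arterial genes stood near 0, and capillary genes on both sides of it. The measured arterial genes were Sox17 and Gja4, the gap junction gene connexin 37, which read 284 and 289 (0.029), and their median was 0.089. Ednrb, the endothelin receptor of alveolar capillary endothelium that is also made by other lung and nerve cells, read 989 and 1298 (0.39, 1.31-fold) by its brightest probe set, and its other probe sets gave 0.21 and 0.025. Car4, a membrane carbonic anhydrase of the same capillary cells, was on the other side of 0, at 249 and 235 (-0.087) and 234 and 177 (-0.40). Ednrb and Car4, markers of the same cell type, therefore did not share a sign. Apln, the apelin ligand of capillary and tip cells, read 488 and 539 (0.14), and its receptor Aplnr read 2173 and 1999 (-0.12) and 341 and 278 (-0.29). The 4 capillary genes had a median of 0.028, and the median became negative when each gene took the median of its probe sets (-0.032).

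Most of the genes with several measured probe sets had the same sign on all of them. Of the 18 genes with several measured probe sets, 8 had all of them above 0 and 4 had all of them below, where 20.1% and 30.1% of all such genes did. The 8 were Cdh5, Flt4, Eng, Sox17, Egfl7, Ednrb, Vegfa and Angpt1, and the 4 were Car4, Aplnr, Vegfc and Fli1. Counted by probe set, 4 of the 64 measured reached 1.5-fold higher and 2 reached 1.5-fold lower, against 9.32% and 9.24% of all measured and named probe sets, and 38 (59.4%) stood above 0, against 45.2%. The 4 belonged to Cdh5, Egfl7 (2 of them) and Flt1, and the 2 to Vegfc. Probe sets of a gene share its RNA and are not replicates.

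Promoter sequence is shown for Flt1 and Egfl7, which stood highest among the receptors and by probe set, for Vegfc, which stood lowest, and for Kdr as a Vegf receptor with a ratio near 0. The windows are those of RefSeq on GRCm38.p6, from 250 bases before to 50 after the start of the gene, and for Egfl7 the first of its 3 windows is shown. Capitals mark matches, on either strand, to 4 motifs: GGAAGT and CGGAA, both held by sites of Ets factors, the E-box CACGTG that Myc proteins bind with Max, and ACAATG, held by sites of Sox factors.
Flt1, chr5:147725962-147726261, - strand: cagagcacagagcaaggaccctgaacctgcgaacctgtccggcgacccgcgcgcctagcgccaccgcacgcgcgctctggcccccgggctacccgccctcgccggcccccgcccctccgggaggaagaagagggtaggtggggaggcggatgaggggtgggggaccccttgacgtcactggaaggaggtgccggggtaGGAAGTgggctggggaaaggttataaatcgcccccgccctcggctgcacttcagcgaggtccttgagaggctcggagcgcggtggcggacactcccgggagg
Egfl7, chr2:26580833-26581132, + strand: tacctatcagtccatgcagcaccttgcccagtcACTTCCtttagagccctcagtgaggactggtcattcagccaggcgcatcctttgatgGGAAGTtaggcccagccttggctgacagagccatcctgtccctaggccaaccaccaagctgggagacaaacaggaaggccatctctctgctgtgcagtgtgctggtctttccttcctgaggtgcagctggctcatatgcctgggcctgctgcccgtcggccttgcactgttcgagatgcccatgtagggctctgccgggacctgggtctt
Vegfc, chr8:54077282-54077581, + strand: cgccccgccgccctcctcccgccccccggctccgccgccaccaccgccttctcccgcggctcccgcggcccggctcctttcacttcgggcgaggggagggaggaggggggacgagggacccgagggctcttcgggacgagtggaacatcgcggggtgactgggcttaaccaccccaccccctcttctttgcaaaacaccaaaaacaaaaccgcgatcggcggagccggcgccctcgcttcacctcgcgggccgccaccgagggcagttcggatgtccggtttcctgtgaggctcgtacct
Kdr, chr5:75978406-75978705, - strand: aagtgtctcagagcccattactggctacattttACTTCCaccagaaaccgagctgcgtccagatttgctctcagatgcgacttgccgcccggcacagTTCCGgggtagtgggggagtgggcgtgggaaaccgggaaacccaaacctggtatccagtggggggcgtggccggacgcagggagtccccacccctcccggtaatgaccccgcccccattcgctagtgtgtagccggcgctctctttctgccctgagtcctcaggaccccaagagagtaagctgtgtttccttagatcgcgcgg

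The E-box CACGTG was in none of the 25 windows found for 19 of the 38 genes, while 7.15% of all 32851 windows held it. The other genes had no window, and 25 windows are too few to tell a lack of this motif from that share. The letters GGAAGT were in 7 of the 25 windows (28%) against 23.8% of all windows, those of Egfl7, Eng, Flt1, Kdr, Tie1 and Vegfa. These 6 genes all had ratios above 0, from 0.077 to 0.55, and of the 11 other measured genes with a window 6 stood above 0. CGGAA was in 4 windows (16%, against 29.9%) and ACAATG in 1 (4%, against 12.6%). Of the 4 genes with CGGAA 3 stood above 0, and of the 13 other measured genes with a window 9 did. The median ratio was 0.23 with GGAAGT and 0.021 without, but 0.049 with CGGAA and 0.14 without. The medians for the 2 Ets motifs thus differed in opposite directions, while the counts above 0 did not. Kdr and Tie1 hold both motifs, and 41.3% of all measured genes stood above 0. Flt1 has 1 GGAAGT match, Egfl7 has 2, Kdr has 1 beside 1 CGGAA match, and the Vegfc window has no match to any of the 4. These are matches of letters in windows of 300 bases. The motifs were picked with the ratios known, and no binding was measured.

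A wider list of vascular genes stood in the same range. Of 50 related genes, among them further Vegf ligands, neuropilins, Notch and ephrin genes of arteries and factors of endothelial specification, 49 were on the array and 44 measured. Of these, 2 passed 1.5-fold upwards and 1 downwards, against 6.33% and 9.7% of all measured genes. Above 0 stood 25 (56.8%, against 41.3% of all measured genes), with a median of 0.031. The highest were Notch4, an endothelial Notch receptor, at 140 and 217 (0.63), and Ptprb, the phosphatase VE-PTP that restrains Tek, at 460 and 701 (0.61). Efnb2, the arterial ephrin, followed at 738 and 1094 (0.57) and Gata2, a factor of endothelial and blood lineages, at 301 and 446 (0.57). All measured probe sets were above 0 for Notch4, Ptprb and Gata2, whereas those of Efnb2 ran from -0.094 to 0.57. The lowest was Vcam1, an adhesion molecule that mesenchyme also expresses, at 474 and 312 (-0.61), with other probe sets up to 0.48. Adgrf5, an adhesion receptor of lung endothelium and epithelium, followed at 1178 and 848 (-0.48, the other probe set at 0.53), then Gng11, a G protein gamma subunit, at 2287 and 1681 (-0.44) and Adm, the ligand of the Ramp2 receptor, at 189 and 140 (-0.43).

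Several lists for other tissues and cell states in the same RNA stood further from 0 than the endothelial genes. For scale, 6.33% of all measured genes were at least 1.5-fold higher, 9.7% were lower by that size and 41.3% stood above 0. All 15 measured proliferation genes stood below 0, 14 of them at least 1.5-fold, with a median of -0.95 and a summed signal of 5968 and 2993. Among 11 type 1 alveolar genes, 3 were 1.5-fold lower and none higher (median -0.35, sum 24793 and 20296). Of 9 type 2 alveolar genes, 1 was lower and none higher (median near 0, sum 36768 and 35184). In smooth muscle and pericytes, 4 of 11 genes stood lower by that size and none higher (median -0.22, sum 7221 and 5758), and of 7 mesothelium genes, 4 were lower and none higher (median -0.83, sum 4019 and 2166). Liver genes had 4 of 6 higher (median 1.07) and skeletal muscle 2 of 5 higher (median 0.51, sum 472 and 988), with none lower in either. Heart muscle and endocardium had 2 of 11 higher and 1 lower (median -0.21, sum 4753 and 4578).

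Blood and platelet genes bear on Vwf, Fli1, Icam2 and Pecam1, which such cells also express. Of 12 measured, 2 were at least 1.5-fold higher and 1 lower, against 6.33% and 9.7% of all measured genes. Their median was -0.10, with a summed signal of 7570 and 6139 over the 13 on the array. The highest were Itga2b, a platelet integrin, at 97.4 and 203 (1.06), and Laptm5, a leukocyte gene, at 207 and 320 (0.63). The lowest were Slc4a1, the red cell anion exchanger, at 604 and 354 (-0.77), and Ppbp, a platelet chemokine, at 256 and 175 (-0.55). Platelet genes therefore stood on both sides of 0, and the brightest of them, Pf4, was lower at 717 and 495 (-0.54). Treml1 was lower at 130 and 112 (-0.22), and Gp1bb near equal (0.042). Gp9 read 68.1 and 15.7, with a mean below the floor. No gene of any of these lists was at a signal of 0 on either array, and the part of these other cells in the endothelial values was not tested.

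**Figure D4:**
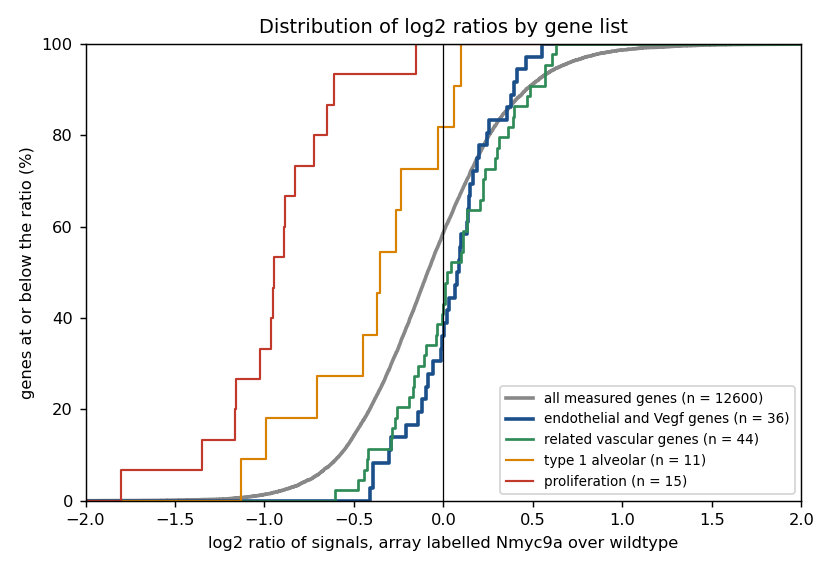
Share of genes (y, percent) at or below each log2 ratio (x) for the endothelial and Vegf genes, the related vascular genes, all measured genes and, for scale, the type 1 alveolar and proliferation lists. The endothelial curve crosses its median at 0.081, right of that of all measured genes at -0.089, and lies within -0.41 and 0.55.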

How the data were processed

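Total RNA of whole lungs at embryonic day 18 was hybridised to 1 array per group. The authors deposited 1 intensity for each probe set, on a linear scale as the values show. Per the labels, Trizol and then an RNeasy kit gave the RNA, biotin was the label and lungs were pooled. Which software and scaling were used is not given in the sources used here, while the mean intensity after trimming 2% at each end was 150 on both arrays.

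The 64 control probe sets were removed. A factor of 0.977 was applied to the array labelled Nmyc9a, which set to 0 the median log2 ratio of probe sets with a mean at or above the floor. Lower values were set to the floor of 49.3 (40th percentile) ahead of the log2 ratio. Signals are printed after scaling and before the floor. Of the non-control probe sets, 34945 had 1 gene symbol, 932 several and 9160 none. Symbols were updated through Entrez identifiers to RefSeq (GRCm38.p6), which matched 34741. Each gene took its brightest probe set, and 12600 genes were measured. The number of arrays limits the precision. There was no test, and a count means genes past 1.5-fold. Every gene of the group is described. Of the related vascular genes the 4 highest and 4 lowest are named, and other lists are given mainly as counts and sums. The genes and lists were chosen with earlier results of these data known. Alternatives were other scalings (as deposited, quantile, loess with a span of 0.3), floors (20th or 60th percentile, none, a pseudocount of 16), the median over probe sets, leaving out probe sets ending in _x_at, _s_at or _a_at, and sizes of 2-fold and of 0.32 on the log2 scale. The steps were tested on simulated data. Python 3.11.15, pandas 2.3.3 and statsmodels 0.14.6 were used.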

Additional observations from a re-analysis of the deposited data

How the results depend on the processing

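No paired analysis was possible because each group held 1 array. The endothelial median stayed above 0 and above that of all measured genes under all 9 alternatives, from 0.048 to 0.25. These alternatives rework the same 2 arrays and are not independent checks. The 2 other floor percentiles and no floor left the ratio of each of the 36 genes unchanged wherever it was measured. Values as deposited only shifted these ratios by 0.033. Above 0 stood 21 to 28 genes (58.3% to 77.8% of those measured), against 36.4% to 44.6% of all measured genes. Of the 36 genes, 20 kept a ratio above 0 and 7 below 0 in every alternative that gave them a value, and 9 changed sign (Acvrl1, Angpt2, Aplnr, Cldn5, Clec14a, Ets1, Lyve1, Pecam1 and Plvap). Leaving out x, s and a probe sets moved Acvrl1 to 0.43. Quantile normalization gave an endothelial median of 0.21, a pan-endothelial median of 0.20 and a receptor median of 0.31. Loess gave 0.25, 0.23 and 0.31 for these, and a median of 0.30 for secreted factors and enzymes. Each left 1 gene 1.5-fold higher, Ednrb, where 5.10% (quantile) and 5.56% (loess) of all measured genes were. The surface and junction median turned positive with values as deposited (0.028), quantile normalization (0.069), loess (0.12) and with x, s and a probe sets left out (0.0015). The capillary median turned negative with the median of probe sets (-0.032) and with those probe sets left out (-0.075). The median of probe sets left 1 gene 1.5-fold lower, Vegfc, against 7.83% of all measured genes. At a log2 ratio of 0.32, 6 endothelial genes were higher and 3 lower, against 16% and 27.2% of all measured genes. Related vascular genes at least 1.5-fold higher numbered 4 with values as deposited or quantile normalization and 6 with loess. Of all measured genes 7.13%, 5.10% and 5.56% were. None of the related genes was 1.5-fold lower with these 3, with a pseudocount or with the median of probe sets (0 each). Of all measured genes 7.83% to 10.9% were. At 0.32 on the log2 scale 9 related genes were higher and 5 lower, against the same 16% and 27.2%. At 2-fold the counts were 0 and 0, against 1.29% and 1.38%. The median of the related genes was 0.15 with quantile normalization, loess and the median of probe sets. The cause of these shifts was not tested. Probe sets of the x, s and a kind have names ending in those letters and can bind several transcripts. Signals close to the floor, such as those of Angpt2, limit how large a lower ratio could be measured.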
